A study of Rattus norvegicus with 12 samples.

Results

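Genes for the contractile actin apparatus and for the adhesion plaques that anchor it were followed through a rat model of renal congestion. The set was a list of 49 gene symbols, and each gene was represented by the array row annotated with that symbol alone, the brightest one over all arrays where there were several. Of these, 47 were measured, among 18166 genes in all. Myl6, an essential myosin light chain, appeared only on a row shared with other genes, and the calponin gene Cnn2 had no row that was named here, so neither has a value.

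In male Sprague-Dawley rats of 7 to 9 weeks and 250 to 350 g, the inferior vena cava was tied off between both renal veins, which congested the left kidney, and tissue was taken on day 3. The congestive left kidney was compared with the control right kidney of the same operated rats, separately in the cortex and in the outer medulla, with 3 arrays in each of the 4 groups and 12 arrays in all. The control was therefore a kidney of an operated animal, and arrays of unoperated or sham-operated rats were not analysed here. Each array gave expression on the log2 scale, on which a difference of 1 is a doubling.

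Smooth muscle and pericytes contract when myosin II pulls on actin filaments that are stabilised by tropomyosins and bundled by alpha-actinins. In fibroblasts and in injured epithelium, nonmuscle isoforms of the same proteins build stress fibres. These end in focal adhesions, where talins, vinculin, parvins and kindlins tie actin to integrins, and where signalling enzymes set the tension. In the healthy kidney the muscle isoforms mark mainly arterioles and pericytes, including those around the descending vasa recta of the outer medulla.

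The contractile and adhesion genes were shifted upward in the congestive kidney in both regions. In the cortex, 21 of 47 genes were higher in the congestive kidney and 1 was lower, where 7.98% of all genes were higher and 3.64% lower (limma, adjusted p under 0.05 over all genes). Of the same 47 genes, 35 were higher in the congestive outer medulla and 0 lower, against 11.8% and 11.3% of all genes. At an unadjusted p under 0.05, 29 were higher and 2 lower in the cortex, against 14.7% and 12.9% of all genes. In the outer medulla 37 were higher and 0 lower at that threshold, against 17% and 17.1% of all genes, and no other fit that was tried called any gene lower there. The median change over the 47 genes was 0.33 in the cortex and 0.46 in the outer medulla, while the medians over all genes were -0.02 and -0.01. Per pair of kidneys the median was 0.22, 0.47 and 0.31 in the cortex and 0.53, 0.52 and 0.37 in the outer medulla, so it was above 0 in every pair. The list was drawn up with results of these arrays known, so its direction is not independent evidence.

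All 21 genes that were higher in the cortex were also higher in the outer medulla, a further 14 were called in the outer medulla and not in the cortex, and 11 were called in neither region. Over all genes, 1122 of the 1449 that were higher in the cortex, or 77.4%, were also higher in the outer medulla. Both regions were compared with their own control arrays, so these counts share no arrays. The calls are still not independent, since both regions were fitted together with a common estimate of each gene's spread. The p-values measure only the spread between pairs of kidneys, 3 in each region. This spread was pooled over both regions and drawn by limma towards that of all genes. In whole tissue, more cells of a type and more RNA per cell cannot be told apart.

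**Figure D1:**
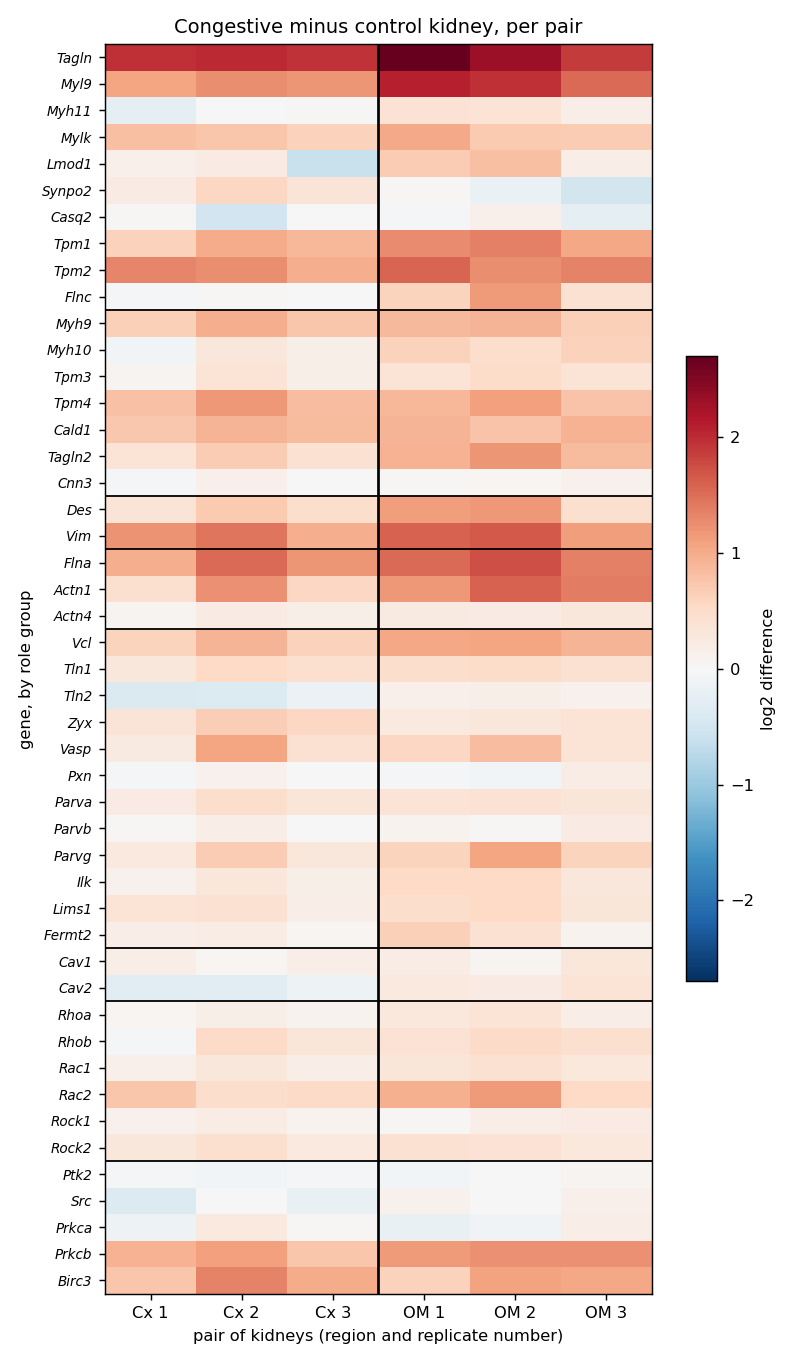
Difference between the congestive and the control kidney in log2 units (colour, red higher and blue lower) for each of the 47 genes (rows, in 8 role groups separated by lines) and each pair of kidneys (columns, 3 of cortex and 3 of outer medulla). Tagln is the deepest red row in every cortex pair, and the rows of Tln2 and Cav2 are blue in the cortex and pale red in the outer medulla.

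A pair of sequence motifs is linked to genes of this kind, and both were searched for because these genes moved together. The CArG box binds serum response factor, which drives contractile genes with its partners myocardin and the MRTF proteins. The MCAT motif, with the core letters GGAATG, binds the TEAD factors, through which YAP and TAZ act. The first bases of this core are also those of ETS sites, so the motifs overlap. RefSeq promoter sequences (GRCr8) were at hand for 35 of the measured genes, and both strands of the 250 bases before the start were searched. The other 12 were not searched, and they include Tagln, Myl9, Myh11 and Lmod1 of the contractile group. No CArG box was found in any of the 35, and 1.5% of all 33469 promoter windows held one. The MCAT core was found in 9 of the 35 genes, which is 25.7%: Flna, Tpm1, Vcl, Tagln2, Cald1, Mylk, Zyx, Myh10 and Flnc. Of all windows 12.1% held it, but the units of these shares differ. A gene counted if any of its windows matched, and the 35 genes had 43 windows. All 9 were higher in the congestive outer medulla, as were 16 of the 26 genes without a match. In the congestive cortex 7 of the 9 and 8 of the 26 were higher. Over all measured genes with a promoter the difference was small. In the outer medulla 12.6% of the 1649 with a match and 11.6% of the 12915 without were higher, and in the cortex 8.85% and 7.63%. The motif was searched for after values were seen, in a list chosen with results known, so the split is a description. A match describes letters in a window and is neither a binding site nor a cause. Stretches of 80 bases are shown for the 6 genes with a match that changed most in the outer medulla, with the matched letters, or their reverse complement, in capitals, written 5′ to 3′ on the strand of the gene.
Flna: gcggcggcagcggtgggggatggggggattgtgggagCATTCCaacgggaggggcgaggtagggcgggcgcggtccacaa
Tpm1: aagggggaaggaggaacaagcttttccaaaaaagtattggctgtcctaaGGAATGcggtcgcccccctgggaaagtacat
Vcl: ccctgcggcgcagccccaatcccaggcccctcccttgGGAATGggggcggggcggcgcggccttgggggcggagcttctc
Tagln2: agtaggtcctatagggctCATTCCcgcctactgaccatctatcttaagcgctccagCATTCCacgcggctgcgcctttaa
Cald1: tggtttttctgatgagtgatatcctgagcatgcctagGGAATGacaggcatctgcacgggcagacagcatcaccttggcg
Mylk: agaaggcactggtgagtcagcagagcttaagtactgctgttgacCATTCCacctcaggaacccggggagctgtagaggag
In GRCr8 the stretch of Flna lies at chrX:157182375-157182454 on the minus strand, that of Tpm1 at chr8:76543416-76543495 on the minus strand, that of Vcl at chr15:3404925-3405004 on the minus strand, that of Tagln2 at chr13:87499220-87499299 on the plus strand, that of Cald1 at chr4:64233024-64233103 on the plus strand, and that of Mylk at chr11:79498575-79498654 on the minus strand. The match starts 31 bases before the start of the gene in Tpm1, 36 in Mylk, 74 in Flna, 167 in Vcl and 195 in Cald1. Tagln2 holds it at 170 and again at 132.

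Among the genes of the smooth muscle contractile apparatus and the Z-disc, 5 of 10 were higher in the cortex and 7 of 10 in the outer medulla. Tagln changed most in both regions, followed by Tpm2 in the cortex and Myl9 in the outer medulla, while Lmod1, Synpo2 and Casq2 were called in neither region. Tagln encodes transgelin (SM22 alpha), an actin-binding protein of smooth muscle. In the cortex its log2 values were 8.32, 8.72 and 8.13 in the control kidneys and 10.30, 10.73 and 10.09 in the congestive kidneys. The outer medullary arrays read 8.59, 9.25 and 9.09 in the control and 11.39, 11.55 and 10.98 in the congestive kidneys. Every congestive array lay above every control array in both regions, and the means differed 3.96-fold in the cortex (log2 change 1.98, SE 0.15, adjusted p = 0.00031) and 5.04-fold in the outer medulla (2.33, SE 0.15, adjusted p = 4.8e-05). Myl9 encodes the regulatory light chain of smooth muscle myosin II, whose phosphorylation starts contraction. Its cortical values rose from 8.31, 8.39 and 7.77 to 9.37, 9.65 and 8.96, a change of 1.17 (adjusted p = 0.00081). Outer medullary values rose from 8.09, 8.17 and 7.98 to 10.18, 10.15 and 9.51, a change of 1.87, or 3.65-fold (adjusted p = 4.1e-05). The control and congestive arrays did not overlap in either region, and in both the congestive kidney of pair 3 was the lowest of the congestive ones. The partner light chain gene Myl6 has no value, as described above.

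The tropomyosins, which lie along the actin filament and govern myosin access, were called higher in both regions, apart from Tpm3 in the cortex. Tpm1 in the cortex read 8.33, 8.34 and 8.29 in the control kidneys and 8.94, 9.34 and 9.19 in the congestive ones. Outer medullary values were 8.56, 8.83 and 8.67 in the control and 9.84, 10.18 and 9.71 in the congestive kidneys, so that the change was 0.84 in the cortex (adjusted p = 0.0018) and 1.22 in the outer medulla (adjusted p = 0.00013). No congestive array of Tpm1 fell within the control range. Tpm2 went from 6.36, 6.91 and 6.99 to 7.68, 8.16 and 7.96 in the cortex and from 6.60, 7.13 and 7.10 to 8.18, 8.40 and 8.45 in the outer medulla. This was a change of 1.18 (adjusted p = 0.00044) and 1.39 (adjusted p = 7e-05), again without overlap, although the control kidney of pair 1 was the lowest array of its group in both regions. Tpm4, a nonmuscle tropomyosin, changed by 0.93 in each region, from 10.02, 10.02 and 9.93 to 10.82, 11.18 and 10.76 in the cortex and from 10.42, 10.46 and 10.37 to 11.32, 11.57 and 11.14 in the outer medulla (adjusted p = 0.0013 and 0.00058). Tpm3 changed least of these genes. It was called in the outer medulla, at 0.41 (adjusted p = 0.0097), and that call was lost whichever pair was left out, with changes of 0.43, 0.37 and 0.42. Its cortical change was 0.20 (adjusted p = 0.16).

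Mylk, the kinase that phosphorylates the regulatory light chain, was 1.65-fold higher in the congestive cortex and 1.76-fold higher in the congestive outer medulla. Its values were 8.61, 8.69 and 8.54 against 9.41, 9.43 and 9.16 in the cortex and 8.77, 8.90 and 8.60 against 9.80, 9.61 and 9.30 in the outer medulla, without overlap (adjusted p = 0.0023 and 0.00063). Myh11, the smooth muscle myosin heavy chain, read 7.42, 7.13 and 6.85 in the control cortex and 7.18, 7.11 and 6.89 in the congestive cortex, and these ranges overlapped (change -0.07, adjusted p = 0.64). For the outer medulla the values were 6.84, 6.81 and 7.20 in the control and 7.23, 7.18 and 7.38 in the congestive kidneys, and the ranges overlapped through the control kidney of pair 3 (change 0.32, adjusted p = 0.031). That call was lost whichever pair was left out, with changes of 0.28, 0.29 and 0.38 and adjusted p of 0.16, 0.19 and 0.056, and also without the pairing. Lmod1, a leiomodin that seeds actin filaments in smooth muscle, passed the test in neither region. It changed by -0.08 in the cortex (adjusted p = 0.8) and by 0.56 in the outer medulla (adjusted p = 0.052), where the values were 5.06, 5.20 and 5.32 in the control and 5.76, 6.01 and 5.50 in the congestive kidneys.

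Synpo2 (myopodin), an actin-bundling protein of the Z-disc, differed in sign between the regions. Its values were 6.02, 5.90 and 5.90 in the control and 6.24, 6.46 and 6.26 in the congestive cortex, with no overlap, and 6.54, 7.14 and 6.86 in the control and 6.57, 6.96 and 6.37 in the congestive outer medulla, with overlap. Neither change passed the test (0.38, adjusted p = 0.07, and -0.21, adjusted p = 0.23). Casq2, the calcium buffer of the sarcoplasmic reticulum of heart muscle, changed by -0.17 and -0.04 (adjusted p = 0.42 and 0.86), with values between 4.69 and 5.27 over all arrays.

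**Figure D2:**
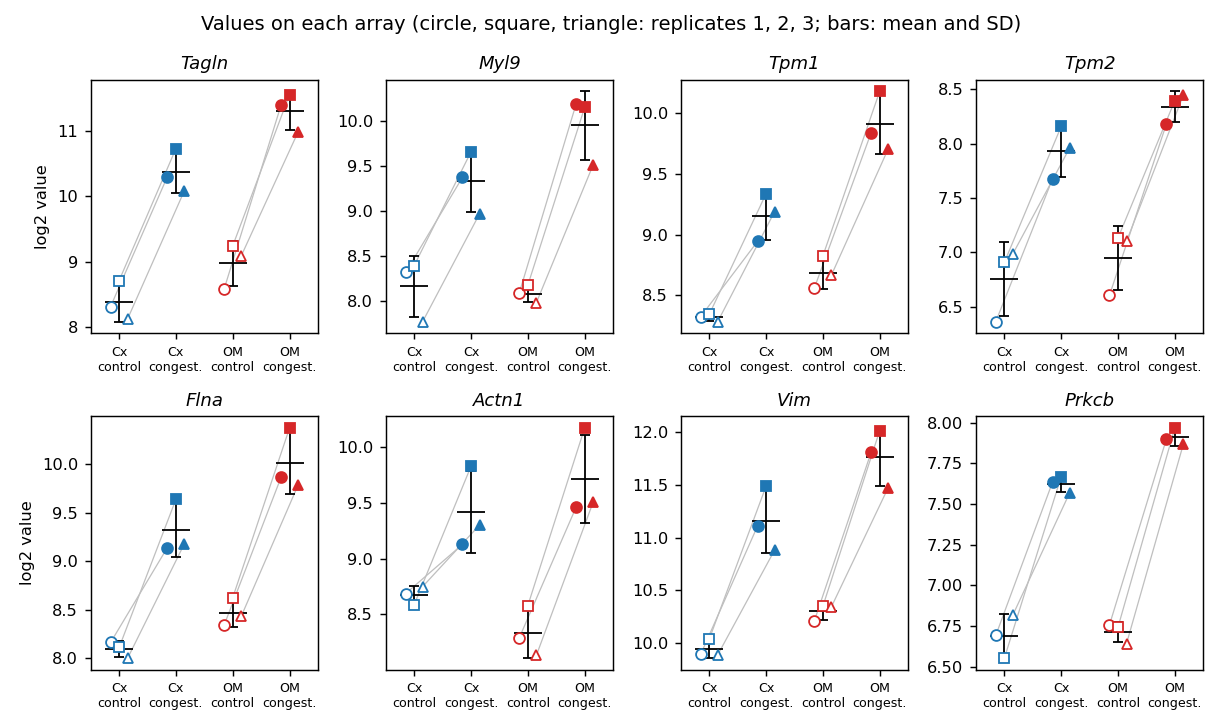
Log2 value on each array (vertical axis, its range differing by panel) of 8 genes in the control and congestive (congest.) cortex (Cx) and outer medulla (OM), with the mean and SD of 3 arrays as bars and grey lines joining the kidneys of a pair. In each of the 8 panels the 3 congestive arrays of a region lie above its 3 control arrays.

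The filamins crosslink actin into networks and bind integrins. Flna, the widely expressed member, was 2.35-fold higher in the congestive cortex and 2.91-fold higher in the congestive outer medulla. Its values were 8.16, 8.11 and 8.00 in the control and 9.14, 9.64 and 9.18 in the congestive cortex. Those of the outer medulla were 8.34, 8.63 and 8.43 in the control and 9.87, 10.38 and 9.79 in the congestive kidneys, and the congestive kidney of pair 2 was the highest array in each region (adjusted p = 0.00081 and 0.00011). Flnc, the muscle member, did not pass the test in the cortex, at 5.57, 5.46 and 5.53 in the control and 5.53, 5.49 and 5.52 in the congestive kidneys (change -0.01, SE 0.13, adjusted p = 0.97). The outer medullary values of 5.50, 5.18 and 5.47 in the control and 6.09, 6.34 and 5.88 in the congestive kidneys did not overlap (change 0.72, SE 0.13, adjusted p = 0.006). The difference between these 2 changes was 0.73 and was not called (adjusted p = 0.11). The alpha-actinins, dimers that bundle actin filaments, were also unequal. Actn1 read 8.69, 8.59 and 8.75 against 9.13, 9.83 and 9.30 in the cortex and 8.29, 8.58 and 8.13 against 9.46, 10.17 and 9.51 in the outer medulla. This was a change of 0.74 in the cortex (adjusted p = 0.02) and 1.38 in the outer medulla (adjusted p = 0.00064), with no overlap in either. The cortical call was lost without pair 2 (change 0.50, adjusted p = 0.065) or without pair 3 (0.84, adjusted p = 0.072). Actn4, the isoform that podocytes need, changed by 0.15 (adjusted p = 0.22) and 0.26 (adjusted p = 0.033), and the second call was lost whichever pair was left out, at changes of 0.24 to 0.28.

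Among the nonmuscle actomyosin and calponin-family genes, 4 of 7 were higher in the cortex and 6 of 7 in the outer medulla. Myh9, the heavy chain of nonmuscle myosin IIA, moved by nearly the same amount in both regions, 0.79 in the cortex and 0.81 in the outer medulla (adjusted p = 0.0018 and 0.00073). It read 10.02, 9.96 and 9.95 against 10.66, 10.94 and 10.70 and 10.12, 10.26 and 10.19 against 11.00, 11.18 and 10.83, with every congestive array above the control arrays. Myh10, the heavy chain of nonmuscle myosin IIB, read 8.47, 8.22 and 8.29 against 8.39, 8.54 and 8.45 in the cortex, where the groups overlapped (change 0.13, adjusted p = 0.41). In the outer medulla it read 8.50, 8.48 and 8.09 against 9.13, 8.97 and 8.71 and did not overlap (change 0.57, adjusted p = 0.0032). Tagln2 is the transgelin of nonmuscle cells. Its values were 10.68, 10.70 and 10.64 in the control and 11.05, 11.40 and 11.06 in the congestive cortex and 10.29, 10.28 and 10.25 in the control and 11.23, 11.47 and 11.10 in the congestive outer medulla. The changes of 0.49 (adjusted p = 0.017) and 0.99 (adjusted p = 0.00035) were smaller than those of Tagln in each region, and the cortical call was lost whichever pair was left out, at changes of 0.39 to 0.56. Cald1, caldesmon, which restrains myosin on actin, changed by 0.83 and 0.87 (adjusted p = 0.00071 and 0.00021), from 9.26, 9.44 and 9.17 to 9.98, 10.36 and 10.03 in the cortex and from 9.20, 9.44 and 8.99 to 10.10, 10.20 and 9.94 in the outer medulla. The acidic calponin gene Cnn3 changed by 0.04 and 0.07 (adjusted p = 0.79 and 0.56).

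Both intermediate filament genes rose in the outer medulla. Vim encodes vimentin, the intermediate filament of mesenchymal cells. It read 9.90, 10.04 and 9.89 in the control cortex and 11.11, 11.49 and 10.88 in the congestive cortex, and 10.21, 10.35 and 10.35 in the control and 11.81, 12.01 and 11.47 in the congestive outer medulla. The groups stood apart in both regions (change 1.22, adjusted p = 0.0011, and 1.46, adjusted p = 0.00018). Des encodes desmin, the intermediate filament of muscle. Its cortical values were 7.29, 7.44 and 7.35 against 7.64, 8.14 and 7.81, without overlap but short of the threshold (change 0.51, adjusted p = 0.065). Outer medullary desmin went from 7.29, 7.35 and 7.51 to 8.41, 8.54 and 7.95 (change 0.91, adjusted p = 0.0034), and the congestive kidney of pair 3 lay closest to the control kidneys.

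In the adhesion plaque, 5 of 12 genes were higher and 1 was lower in the cortex, and 9 were higher in the outer medulla. Vcl encodes vinculin, which reinforces the link between talin and actin under load. It read 8.55, 8.59 and 8.45 against 9.16, 9.50 and 9.08 in the cortex and 8.58, 8.81 and 8.45 against 9.62, 9.87 and 9.37 in the outer medulla. It was 1.64-fold and 2.01-fold higher in the congestive kidney (adjusted p = 0.0019 and 0.00018), with no overlap.

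The talins, which activate integrins, went opposite ways in the cortex. Tln1, the widely expressed talin, read 8.86, 8.76 and 8.72 in the control and 9.16, 9.30 and 9.16 in the congestive cortex (change 0.43, adjusted p = 0.011). That call was lost whichever pair was left out, at changes of 0.37 to 0.49. Its outer medullary change was 0.46 (adjusted p = 0.0038), from 9.00, 9.06 and 8.97 to 9.47, 9.55 and 9.39. Tln2 was the 1 gene of the set that was lower in a congestive region. Its cortical values were 8.29, 8.28 and 8.15 in the control and 7.91, 7.92 and 7.99 in the congestive kidneys, with no overlap (change -0.30, SE 0.08, adjusted p = 0.039). The call did not hold whichever pair was left out, with changes of -0.26, -0.27 and -0.37 and adjusted p of 0.2, 0.25 and 0.089. Tln2 in the outer medulla read 7.92, 8.03 and 7.88 in the control and 8.07, 8.19 and 8.00 in the congestive kidneys, and the ranges overlapped (change 0.14, adjusted p = 0.24). In the reference annotation Tln1 is the immediate protein-coding neighbour of Tpm2, and Tln2 that of Tpm1. Members of a neighbouring pair thus moved the same way in the first case and opposite ways in the cortex in the second.

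The parvins link actin to integrin-linked kinase. Parva, the alpha member, changed by 0.34 and 0.36 (adjusted p = 0.028 and 0.011), and both calls were lost whichever pair was left out, at 0.27 to 0.39 in the cortex and 0.35 to 0.38 in the outer medulla. Parvb, the beta member, changed by 0.07 and 0.12 and passed the test in neither region (adjusted p = 0.63 and 0.35). Its chromosomal neighbour Parvg, the gamma member, which is expressed mainly in blood cells, read 6.30, 6.26 and 6.74 in the control and 6.89, 7.34 and 7.35 in the congestive outer medulla, without overlap. This change was 0.76 (adjusted p = 0.0035), and in the cortex the change was 0.42 (adjusted p = 0.065). Parva and Parvg were therefore called in the outer medulla and Parvb was not, although no test compared them with each other.

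Of the partners of the parvins, Ilk, the integrin-linked kinase, changed by 0.19 in the cortex (adjusted p = 0.17) and 0.46 in the outer medulla (adjusted p = 0.0052). Lims1 (PINCH1), its adaptor, changed by 0.32 (adjusted p = 0.043) and 0.44 (adjusted p = 0.0062). Fermt2 (kindlin-2), which activates integrins with talin, changed by 0.15 (adjusted p = 0.4) and 0.38 (adjusted p = 0.033). The calls in the outer medulla of all 3 were lost without pair 1 (changes 0.43, 0.43 and 0.26) or without pair 2 (0.42, 0.40 and 0.37), and the cortical call of Lims1 was lost whichever pair was left out, at 0.27 to 0.39. Zyx encodes zyxin, a LIM protein that gathers at strained stress fibres. It read 7.51, 7.49 and 7.47 against 7.86, 8.14 and 8.02 in the cortex and 7.81, 7.89 and 7.78 against 8.08, 8.19 and 8.15 in the outer medulla, and the congestive arrays lay above the control arrays in both. Its change was larger in the cortex (0.52, adjusted p = 0.0063) than in the outer medulla (0.31, adjusted p = 0.028), a difference of -0.21 that was not called (adjusted p = 0.45). The cortical call was lost without pair 2 (0.45) or pair 3 (0.50) and the other whichever pair was left out, at 0.28 to 0.33. Vasp, its actin-elongating partner, changed by 0.57 in the cortex (adjusted p = 0.055) and 0.58 in the outer medulla (adjusted p = 0.032). The latter call was lost without pair 1 (0.60, adjusted p = 0.11) or pair 3 (0.69, adjusted p = 0.058), and in the cortex the control kidney of pair 2 stood low, with control values of 6.96, 6.45 and 6.94. Pxn, paxillin, the scaffold of the plaque, changed by 0.02 and 0.04 (adjusted p = 0.9 and 0.8).

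The caveolins coat membrane pits that buffer tension. Cav1 changed by 0.14 and 0.19 and was called in neither region (adjusted p = 0.3 and 0.12). Its chromosomal neighbour Cav2 read 9.37, 9.12 and 9.20 in the control and 9.06, 8.81 and 9.06 in the congestive cortex, lower in each pair and without overlap (change -0.25, adjusted p = 0.068). In the outer medulla it read 8.63, 8.64 and 8.38 in the control and 8.90, 8.87 and 8.75 in the congestive kidneys, higher in each pair (change 0.29, adjusted p = 0.027). That call was lost whichever pair was left out, at 0.25 to 0.32.

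**Figure D3:**
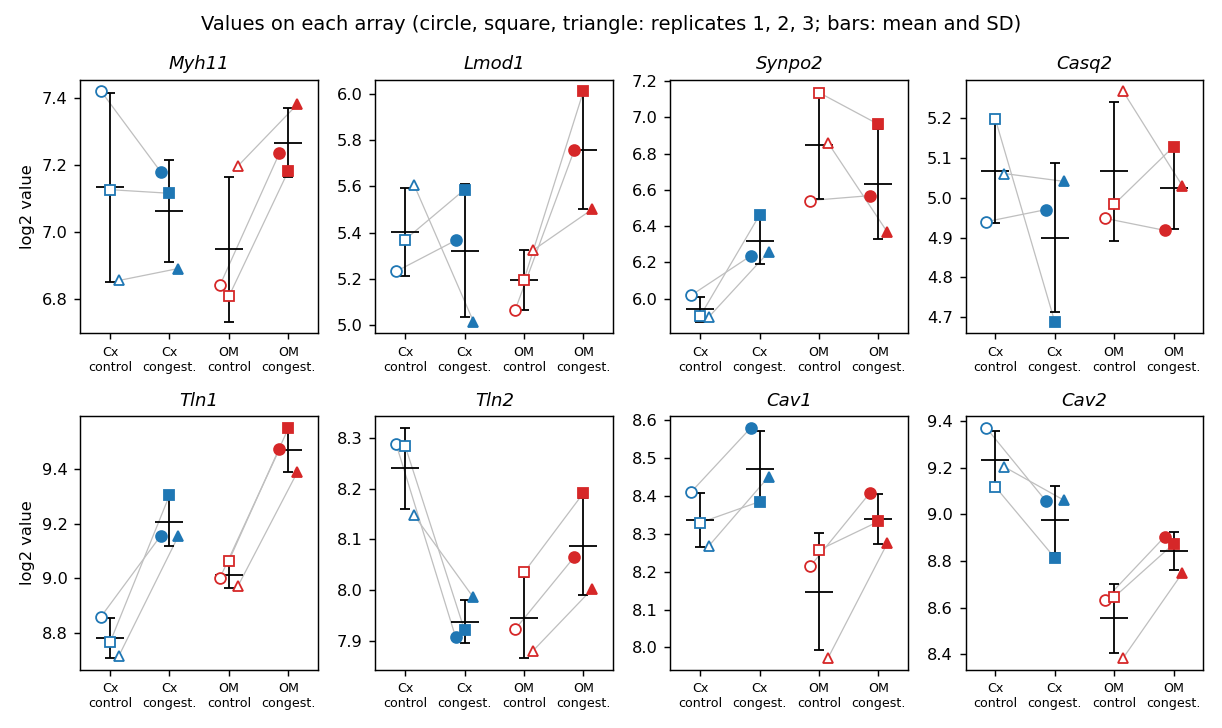
Log2 value on each array (vertical axis, its range differing by panel) of 4 muscle-restricted genes, both talins and both caveolins in the control and congestive (congest.) cortex (Cx) and outer medulla (OM), with the mean and SD of 3 arrays as bars and grey lines joining the kidneys of a pair. Tln2 and Cav2 fall in all 3 cortex pairs and rise in all 3 outer medulla pairs, whereas Tln1 rises in all of them.

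Rac2, the Rac of blood cells, changed more than the widely expressed Rac1. Rac2 read 7.54, 7.97 and 7.86 against 8.30, 8.44 and 8.37 in the cortex and 7.72, 7.61 and 7.84 against 8.67, 8.76 and 8.38 in the outer medulla, with no overlap. The change was 0.58 (adjusted p = 0.02) and 0.88 (adjusted p = 0.0016), and the cortical call was lost without pair 1 (0.49, adjusted p = 0.14) or pair 2 (0.64, adjusted p = 0.065). Rac1 changed by 0.20 (adjusted p = 0.11) and 0.34 (adjusted p = 0.012). Rhoa, the main switch for stress fibres, changed by 0.10 in the cortex (adjusted p = 0.43) and 0.28 in the outer medulla (adjusted p = 0.028). Rhob, an inducible relative that sits on endosomes, changed by 0.26 (adjusted p = 0.16) and 0.45 (adjusted p = 0.019), with the congestive outer medulla at 9.94, 9.96 and 9.39 and the control at 9.54, 9.44 and 8.95, which overlapped through pair 3. The calls of Rac1 and Rhoa were lost whichever pair was left out (0.31 to 0.37 and 0.23 to 0.32), and that of Rhob without pair 2 (0.42) or pair 3 (0.46). Rhoa and Rac1 switch on the kinases below them by binding GTP, which arrays do not measure. Rock1 and Rock2 encode kinases that raise myosin tension, and Rock2 was higher in both regions while Rock1 was called in neither. Rock2 changed by 0.33 (adjusted p = 0.026) and 0.36 (adjusted p = 0.01), and Rock1 by 0.14 (adjusted p = 0.27) and 0.15 (adjusted p = 0.21). The cortical call of Rock2 was lost whichever pair was left out, at 0.28 to 0.37, and the other without pair 1 (0.34) or pair 2 (0.35).

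The last group held signalling genes of the adhesion pathway. Prkcb, protein kinase C beta, was higher in both regions, while Prkca, protein kinase C alpha, was called in neither. Prkcb read 6.69, 6.55 and 6.82 in the control and 7.64, 7.67 and 7.57 in the congestive cortex, and 6.76, 6.74 and 6.64 in the control and 7.90, 7.97 and 7.87 in the congestive outer medulla. It was 1.91-fold and 2.29-fold higher, and the groups lay far apart (adjusted p = 0.00068 and 8.1e-05). Prkca changed by 0.06 and -0.04 (adjusted p = 0.77 and 0.83). Birc3 encodes cIAP2, an inhibitor of apoptosis and a target of NF-kappaB. It read 5.80, 5.42 and 5.62 against 6.55, 6.76 and 6.63 in the cortex and 6.24, 5.99 and 5.94 against 6.86, 7.08 and 6.97 in the outer medulla, again with no overlap (change 1.03, adjusted p = 0.0025, and 0.91, adjusted p = 0.0021). Neither adhesion kinase was called. Ptk2, focal adhesion kinase, changed by -0.05 and by less than its SE of 0.07 (adjusted p = 0.72 and 0.99). Src, the kinase that joins it, changed by -0.19 and 0.09 (adjusted p = 0.21 and 0.56).

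**Figure D4:**
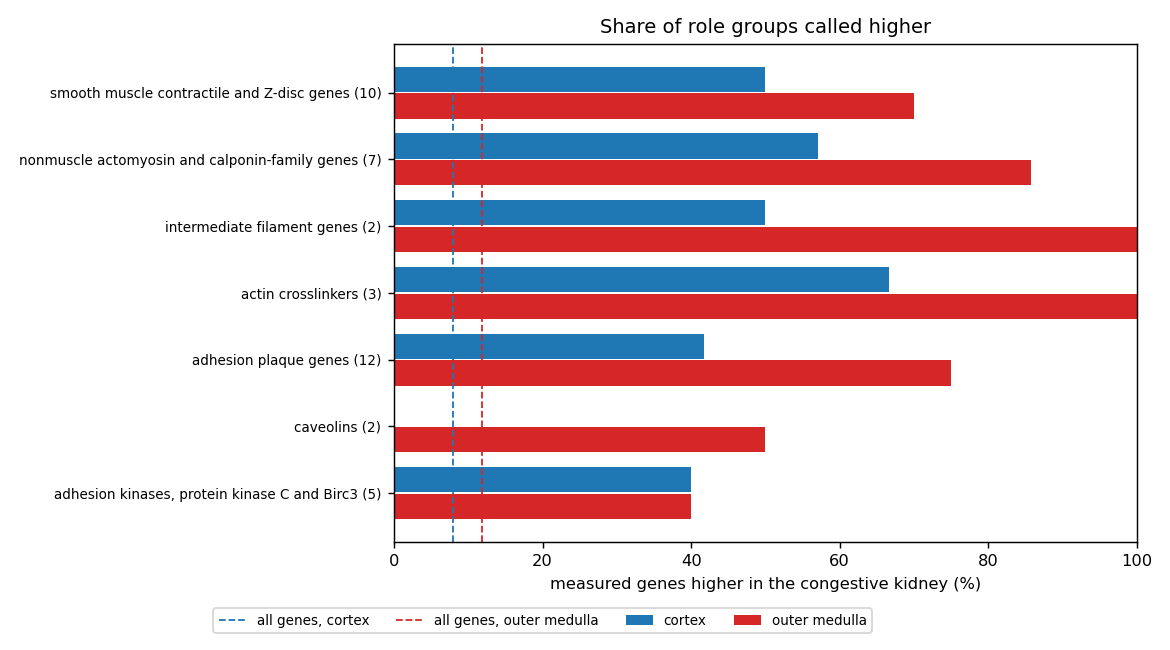
Share of the measured genes of 7 role groups (number in brackets) that were higher in the congestive cortex (blue bars) and outer medulla (red bars), in percent from 0 to 100, with dashed lines at the 7.98% and 11.8% of all genes. The outer medulla bar is the longer one in 6 of the 7 groups and equals the cortex bar in the last.

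The response was then compared between regions. The change was larger in the outer medulla for 42 of 47 genes, and over all genes for 9244 of 18166. No gene of the set passed the test of the difference between the changes in either direction, where 0.804% of all genes had a larger and 0.815% a smaller change in the outer medulla. At an unadjusted p under 0.05 there were 12 with a larger and 1 with a smaller change in the outer medulla, against 7.3% and 7.93% of all genes, and with the trend and robust options of limma 5 were called larger (Cav2, Myh10, Myl9, Tagln2 and Tln2). The largest differences were 0.73 for Flnc (adjusted p = 0.11), 0.70 for Myl9 (adjusted p = 0.082), 0.64 for Lmod1 (adjusted p = 0.27) and 0.64 for Actn1 (adjusted p = 0.22). The opposite sign was largest for Synpo2, at -0.59 (adjusted p = 0.13). Across the 47 genes the changes in the cortex and in the outer medulla had a Pearson r of 0.89, against 0.69 across all genes, as a description of points that share arrays and are not replicates.

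**Figure D5:**
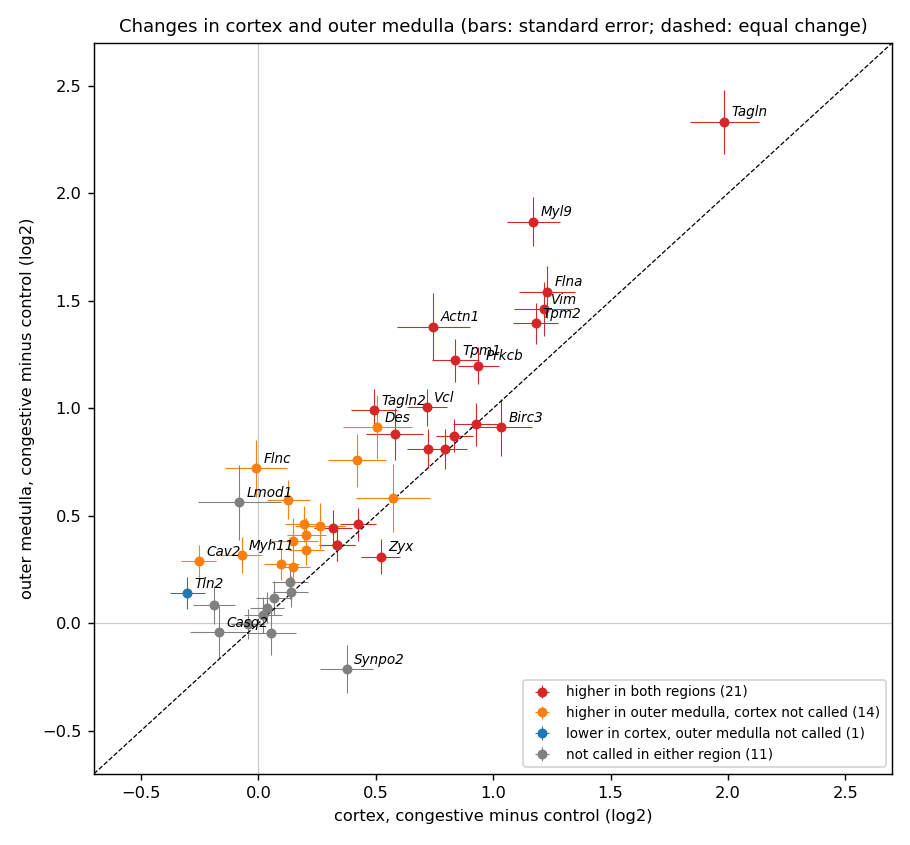
Change of each of the 47 genes in the cortex (horizontal axis) and in the outer medulla (vertical axis), congestive minus control kidney in log2 units, with standard errors as bars and colours for the calls. Of the 47 points 42 lie above the dashed line of equal change, and Tagln lies farthest to the upper right at 1.98 and 2.33.

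Between the control kidneys of both regions a difference was called in a few of these genes. In the control kidneys 7 of 47 were higher in the outer medulla and 4 were higher in the cortex, where 11.4% and 10.1% of all genes were. Synpo2 was the farthest apart of the 7, with control values of 6.02, 5.90 and 5.90 in the cortex. Those in the outer medulla were 6.54, 7.14 and 6.86, which is 0.90 higher (adjusted p = 0.0015). The other genes higher in the outer medulla were Parvb (0.62), Birc3 (0.44), Tpm4 (0.43), Zyx (0.34), Rock2 (0.30) and Tln1 (0.23), with adjusted p from 0.0082 to 0.045. Src was higher in the cortex, at 8.28, 8.04 and 8.31 against 7.37, 7.57 and 7.26 (outer medulla minus cortex -0.81, adjusted p = 0.00014), as were Cav2 (-0.68, adjusted p = 0.00048), Tagln2 (-0.40, adjusted p = 0.019) and Tln2 (-0.29, adjusted p = 0.015). The counts changed with the fit. Whichever replicate was left out, 2 genes were higher in the outer medulla, and 2 to 4 in the cortex, while with the replicate number as a block there were 13 and 5. Shares of all genes were not counted in these fits.

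In the congestive kidneys 14 of 47 genes were higher in the outer medulla and 1, Src, was higher in the cortex, against 8.96% and 9.73% of all genes. The largest were Tagln (0.94, adjusted p = 0.011), Tpm1 (0.75, adjusted p = 0.0017), Flna (0.69, adjusted p = 0.012), Parvb (0.67, adjusted p = 0.028), Vim (0.60, adjusted p = 0.017) and Flnc (0.59, adjusted p = 0.0035). The others were Myh10, Tpm4, Lims1, Rock2, Ilk, Prkcb, Rac1 and Tln1, at differences of 0.27 to 0.48. Parvb, Rock2, Tln1 and Tpm4 were already higher there in the control kidneys. Synpo2, Zyx and Birc3 were called between the regions in the control kidneys alone, at 0.31, 0.13 and 0.32 in the congestive kidneys (adjusted p = 0.23, 0.32 and 0.074). Src remained lower in the outer medulla, at -0.53 (adjusted p = 0.0038). The count of 14 fell to 0 without replicate 1, to 7 without replicate 2 and to 12 without replicate 3.

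Other actin and adhesion genes were counted in the same way, from a list of 99 outside the set of which 85 were measured. The cortex had 29 higher and 2 lower, or 34.1% and 2.35%, against 7.98% and 3.64% of all genes. The outer medulla had 42 higher and 3 lower, or 49.4% and 3.53%, against 11.8% and 11.3% of all genes. In the cortex the largest change was that of the formin gene Diaph3 (1.27, adjusted p = 0.038), which changed by 1.13 in the outer medulla (adjusted p = 0.034). In the outer medulla the largest changes were those of Fhl2 (1.02 in the cortex and 1.80 in the outer medulla), a LIM-only coactivator, and of Pdlim1 (1.04 and 1.39), an adaptor bound to alpha-actinin. Next came Nexn (1.03 and 1.31), an actin-binding protein of the Z-disc, and Cdc42ep3 (0.72 and 1.28), an effector of Cdc42. The genes that were lower in the outer medulla were Cavin2 (-0.71), a coat protein of caveolae, Csrp2 (-0.66), a LIM protein of smooth muscle, and Arhgap5 (-0.45). Those lower in the cortex were Cavin2 (-0.30) and the light chain gene Myl6b (-0.59).

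Of 16 measured regulators and targets of SRF and YAP, 6 were higher in each region and none lower. This is 37.5%, against 7.98% of all genes in the cortex and 11.8% in the outer medulla. Srf itself changed by 0.07 in the cortex and 0.04 in the outer medulla (adjusted p = 0.59 and 0.8). Myocd, the muscle partner of SRF, was called higher in the outer medulla and not in the cortex (0.43, adjusted p = 0.015, and -0.18 in the cortex, adjusted p = 0.28), and so was Tead2, a TEAD factor (0.98, adjusted p = 0.0012, and 0.39, adjusted p = 0.089). The YAP and SRF target Ccn1 was higher in both, at 1.06 and 0.86 (adjusted p = 0.00058 and 0.00056). Egr1, an immediate early gene, was higher in the cortex (1.31, adjusted p = 0.00046), and in the outer medulla its change was 0.35 (adjusted p = 0.053). In the test between regions, 0 of the 16 had a larger change in the outer medulla, so neither Myocd nor Tead2 did. A smaller change was called for 1 of the 16, where 0.804% of all genes had a larger and 0.815% a smaller change.

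Markers of several cell types moved along with these genes, and their part in the result was not tested. Of 13 smooth muscle and pericyte markers 7 were higher in the cortex and 9 in the outer medulla, and the mean log2 level of the list went from 7.25 to 7.44 to 7.64 to 7.98 in the cortex and from 7.45 to 7.53 to 7.95 to 8.10 in the outer medulla. The list is not independent of the set, since both hold Myh11. Within it the receptor gene Pdgfrb changed by 1.16 and 1.66, whereas the pericyte genes Rgs5 (-0.05 and -0.01) and Cspg4 (-0.01 and 0.03) were not called. Of 10 fibroblast markers 8 and 9 were higher, with list levels of 7.20 to 7.77 and 8.36 to 8.79 in the control and congestive cortex and 7.35 to 7.58 and 8.69 to 8.94 in the outer medulla. Of 12 macrophage markers 10 and 12 were higher, with list levels of 7.18 to 7.36 and 8.26 to 8.29 in the cortex and 7.23 to 7.30 and 8.51 to 8.87 in the outer medulla. These values stand beside those of Rac2, Parvg and Prkcb, which blood cells express. Of 8 lymphocyte markers 0 were called in either region (1 in each at an unadjusted p under 0.05), with list levels of 5.32 to 5.44 in the control and 5.25 to 5.46 in the congestive cortex and 5.27 to 5.39 and 5.40 to 5.48 in the outer medulla.

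Markers of the tubule fell or were not called. Of 6 thick ascending limb markers 4 and 5 were lower in the cortex and outer medulla, and of 8 collecting duct markers 6 and 7. Of 8 proximal tubule markers 0 and 2 were lower. The list levels of these were 11.99 to 12.08 in the control and 11.75 to 11.91 in the congestive cortex. In the outer medulla they were 10.66 to 10.72 in the control and 10.15, 9.41 and 10.72 in the congestive kidneys, so the congestive array of pair 2 stood lowest. Without pair 2, 22 of the 47 contractile and adhesion genes were higher in the congestive outer medulla and 0 lower, against 35 and 0 with all pairs. Leaving out pair 1 gave 22 as well, so the lower count is not particular to pair 2. Shares of all genes were not counted in these fits, and the part of uneven tissue sampling was not tested. Of 6 endothelial markers 2 and 1 were higher and 0 and 1 lower, and of 4 podocyte markers 1 was higher and 1 lower, both in the outer medulla. Of 7 listed genes that would mark skeletal muscle, 3 were measured. These were Acta1, Ckm and Tnnt3, which changed by at most 0.10 on the log2 scale (0 of 3 called, and 0 at an unadjusted p under 0.05). They cover skeletal muscle alone, and an admixture of other tissue was not tested. The labelled regions were checked in the control kidneys, in which Slc12a1, the salt transporter of the thick ascending limb, was 2.13 higher in the outer medulla and Nphs1, the podocyte gene for nephrin, was at -1.81 relative to the cortex (adjusted p = 1.4e-07 and 1.8e-07).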

How the data were processed

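RNA of 12 rat kidney samples was hybridised to GeneChip Rat Gene 2.0 ST arrays, one sample per array. The authors processed the arrays with Affymetrix Expression Console, per the labels. The deposited values are on a log scale, read here as log2 from their range of 1.21 to 13.5. Background correction, summarisation and software version, not given in the sources used here, set how strongly low values are compressed. Array medians lay between 6.02 and 6.09 and arrays of a group correlated at 0.988 to 0.991. Arrays carry no read depth, so their number limits the precision.

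Of 36685 rows, 18511 were annotated with 1 symbol, 575 with several and 17599 with none in the platform annotation. Rows with 1 symbol were used, the brightest for each of 18166 genes. The 2 rows of Cav2 were reduced to 1 in this way. A second row of Rhoa, shared with Rhoc, was not used.

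Congestion was tested with limma 3.58.1 in R 4.3.3, with the pair of kidneys as a block, as was its difference between regions, and regions within control or congestive kidneys without a block. p-values were adjusted by the Benjamini-Hochberg method over all genes, and the threshold was 0.05. Control and congestive arrays of a region with the same number were taken as both kidneys of a rat, which is the source of the pairing. The titles give the number and do not name the rat. Deviations of same-numbered arrays from their group means correlated at 0.00, 0.14 and 0.34 in the cortex and 0.17, 0.25 and 0.21 in the outer medulla. Numbers came from the titles, and the source names give the third cortex pair the number of the second. Whether a number is the same rat in both regions is not stated. The fit for congestion with pair blocks was tried on simulated data built with those pairs, which cannot check the pairing. The tests between regions and the motif search were not tried in this way.

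Members and lists were chosen with earlier results of these data known. Array values are given for genes called with a change of 1 or more on the log2 scale or called lower, for the 3 largest changes of each of 8 role groups, and for paralogs. Motifs and neighbouring genes were looked up after values were seen. The count of 1 role group is not reported here.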

Additional observations from a re-analysis of the deposited data

Results flagged for a closer look

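Tln2 and Cav2 were singled out because each went one way in every cortex pair and the other way in every outer medulla pair. For Tln2 the change in the outer medulla minus the change in the cortex was 0.44 (adjusted p = 0.092, limma), and for Cav2 it was 0.54 (adjusted p = 0.053). Neither difference passed the test, but that of Cav2 did with the trend and robust options of limma, among genes above the median level, with the mean of all rows of a gene and after quantile normalization, and that of Tln2 under the first 2 of these.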

How the results depend on the processing

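With the trend and robust options, 2 genes were lower in the cortex and 5 had a larger change in the outer medulla, against 1 and 0. With genes above the median level alone these counts were 2 and 3, and after quantile normalization 2 and 1. With the mean of all rows of a symbol, 1 gene (Cav2) had a larger change in the outer medulla. The methods' t-test after Benjamini-Hochberg adjustment left 1 gene higher and 0 lower in the cortex and 16 higher in the outer medulla. Its unadjusted counts were 30 higher and 1 lower in the cortex, and 34 higher and 0 lower in the outer medulla. Shares of all genes were not counted under the alternatives of this section.

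Leaving out 1 replicate gave 13 to 15 genes higher in the cortex, 0 lower there, and 22 to 26 higher in the outer medulla. Between regions it gave 2 in each case higher in the outer medulla of control kidneys, 2 to 4 higher in their cortex, 0 to 12 higher in the outer medulla of congestive kidneys and 0 to 1 in their cortex. Without the pair as a replicate block, 20 genes were higher and 1 was lower in the cortex and 33 were higher in the outer medulla. Lims1 and Parva lost their cortical calls and Cav2, Myh11 and Rhob their calls in the outer medulla. With the replicate number as a block between regions, 13 genes instead of 7 were higher in the outer medulla of control kidneys, and 19 instead of 14 in congestive kidneys. When a pair was left out or after quantile normalization, no gene called by congestion changed direction. The other alternatives keep each change as it was by construction, apart from Cav2 with the mean of all rows.

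Of 57 calls of single genes by congestion, 18 to 22 were lost when a pair was left out, 40 under the methods' t-test with Benjamini-Hochberg adjustment, 5 without the pairing and 1 after quantile normalization. With 3 pairs and no detection calls, small changes of dim probes are the least certain values, and levels are not compared between genes.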
